A study of Arabidopsis thaliana with 12 samples.

Results

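The NDH genes of the plastid chromosome were examined in leaf RNA of Arabidopsis thaliana: ndhA and ndhC to ndhK, 10 genes of the 133 plastid genes and of the 32743 genes in the count tables. They were taken by gene identifier and not by a rule on measured values: ndhC (ATCG00440), ndhK (ATCG00430), ndhJ (ATCG00420), ndhF (ATCG01010), ndhH (ATCG01110), ndhA (ATCG01100), ndhI (ATCG01090), ndhG (ATCG01080), ndhE (ATCG01070) and ndhD (ATCG01050). Earlier results of these data were known when they were chosen. The duplicated ndhB was left out and is used below only for comparison. RNA was sequenced from leaves of plants aged 35 days and in the vegetative state, grown in long days without treatment. The plants were the otp90 mutant or the wild type (WT; Col in the sample titles, and Col-0 in the study). otp90 is a single T-DNA insertion line, with the insertion after the initiation codon of OTP90, a nuclear gene for a pentatricopeptide repeat protein of mitochondrial RNA editing. The study places this protein in plastids as well as in mitochondria. It reports that otp90 showed no defect of plastid editing, and that its RNA-seq found none in plastid RNA. The labels name an extract called Mito and an extract called Total for each genotype, so that the groups were Mito otp90, Mito WT, Total otp90 and Total WT, with 3 replicate libraries each. How the Mito extract was prepared is not given in the sources used here, and the labels do not say whether replicates came from separate plants, so p-values measure the spread between these libraries only.

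The chloroplast NDH complex is an NADH dehydrogenase-like complex of the thylakoid membrane. It takes electrons from ferredoxin and passes them to plastoquinone, which feeds a cyclic electron flow around photosystem I and pumps protons. Its membrane arm holds the products of ndhA to ndhG, its stromal arm those of ndhH to ndhK, and its other subunits are encoded in the nucleus. The plastid transcripts need sites of C-to-U editing, among them the initiation codon of ndhD, which is edited with the help of CRR4, a pentatricopeptide repeat protein.

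All 10 members lie on the minus strand of the plastid chromosome, in 3 places. ndhC, ndhK and ndhJ occupy 48677 to 50363, with 66 bases between ndhC and ndhK and 103 between ndhK and ndhJ. ndhF stands alone at 110398 to 112638. The remaining 6 lie between 115665 and 123192 in the order ndhH, ndhA, ndhI, ndhG, ndhE and ndhD in the sense of transcription, with rps15, for a ribosomal protein, before ndhH and psaC, for an iron-sulfur subunit of photosystem I, between ndhE and ndhD. ndhA has 2 exons and the other members have 1. The span of 9 members was the same in the RefSeq annotation of TAIR10.1, while the counted span of ndhD began 18 bases before the RefSeq initiation codon. By sequence, ndhD was the member that differed at the start: its first codon was ACG in DNA and carried an RNA editing note in RefSeq, against ATG in the other 9 members. The start of ndhD is shown beside those of ndhE, ndhC and ndhK, each with 18 bases before the initiation codon, which is in capitals, 5′ to 3′ on the coding strand.
ndhD: gtgtatcttgtctttaccACGaatgatttt
ndhE: ttgataaggagttgctgaATGatactcgaa
ndhC: attcataggagttcgtctATGtttctgctt
ndhK: aaaaccattgaaacaattATGaattccatt
These stretches are Pt:117156-117185, Pt:118098-118127, Pt:50352-50381 and Pt:49923-49952 in the order shown. The border of ndhH and ndhA is shown as well, because it bears on how reads were counted, with the last codon of ndhH and the first of ndhA in capitals (Pt:121995-122024).
ndhH-ndhA: aagttgatcgtTAAaATGataatttatgca
A single base separates those genes, and the counting command held no option to assign a read to more than 1 gene, so reads across the border were counted for neither. The GC content of the gene spans was 30.4% to 40.7% over the 10 members, with a median of 33.9%, beside a median of 40.2% over the other 123 plastid genes. Those 123 include tRNA and rRNA genes and ranged from 28.7% to 62.2%, so the medians do not compare protein genes alone.

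Each library held 24660745 to 32418348 counts in Mito and 49434596 to 60464017 in Total. Plastid genes took 42.7% to 48.9% of counts in Mito and 56.7% to 62.2% in Total. Genes of the mitochondrial chromosome took 4.42% to 5.16% in Mito otp90 and 2.89% to 4.59% in Mito WT. In Total they took 0.97% to 1.02% in otp90 and 0.96% to 1.19% in WT. psbA, for the D1 protein of photosystem II, alone took 29.3% to 34.7% of the plastid counts in Mito and 43.3% to 56.0% in Total. The 4 leaf markers fixed for the check (RBCS1A, RCA, CAB2 and LHCA3) were high everywhere, with summed levels of 14518 to 15092 CPM (counts scaled to a library total of 1e6) in Mito otp90, 14040 to 15364 in Mito WT, 14538 to 17366 in Total otp90 and 16378 to 18876 in Total WT. The 9 markers of other tissues or cell types summed to 147 to 158 CPM in Mito otp90, 144 to 148 in Mito WT, 109 to 139 in Total otp90 and 109 to 143 in Total WT. Of these, the seed gene CRC and the root hair gene EXPA7 were at 0 in all 12 libraries. The flower genes AP1 and AP3 were at 0 in Total libraries but not in Mito. There AP1 averaged 0.29 CPM in otp90 and 0.57 in WT, and AP3 0.12 in otp90 and 0.20 in WT. The counts of OTP90 were 6 to 20 per library and do not check the labels.

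The members were well covered, with 4126 to 152177 counts per gene and library. The 95% Wilson interval of a member's share of the plastid counts in 1 library was at most 3.05% of that share to either side, and it covers counting error only. Levels were compared between genes as counts per kilobase and per 1e6 plastid counts. On this scale ndhD averaged 3555 ± 141 (SD, n = 3) in Mito otp90 and 3646 ± 51.9 in Mito WT, and in Total 2550 ± 176 in otp90 and 3055 ± 291 in WT (SD, n = 3 each). ndhE, for a small membrane subunit, was at 2855 ± 574, 3707 ± 609, 4146 ± 386 and 5136 ± 370 in Mito otp90, Mito WT, Total otp90 and Total WT (SD, n = 3 each). Thus ndhD and ndhE headed the order in Mito, without separation between them, whereas in Total ndhE came first and ndhD sixth. The lowest levels belonged to ndhH and ndhF. ndhF, for a large proton-pumping membrane subunit, averaged 346 ± 77.9, 426 ± 44.5, 569 ± 50.7 and 702 ± 23.9 in the same order of groups, and ndhH, for a subunit of the stromal arm, 513 ± 211, 627 ± 111, 523 ± 101 and 561 ± 54.4 (SD, n = 3 each). Neighbours in the order overlapped at all 9 steps in Mito otp90. They did not overlap at 4 steps in Mito WT, at 3 in Total otp90 and at 7 in Total WT, where the order was ndhE, ndhG, ndhC, ndhJ, ndhK, ndhD, ndhA, ndhI, ndhF and ndhH.

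**Figure D1:**
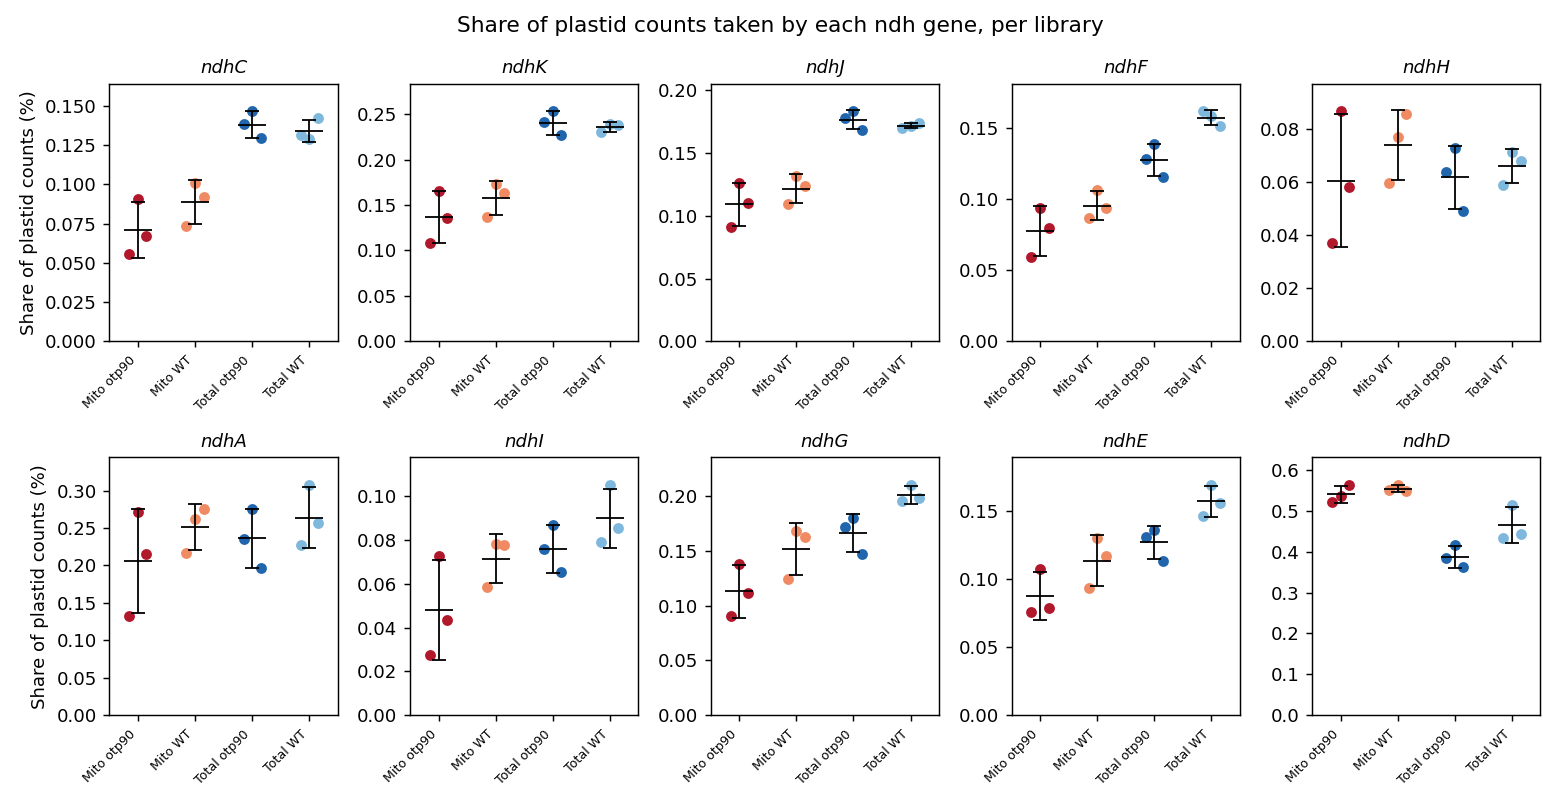
Share of the plastid counts of each library, in percent, taken by each of the 10 ndh genes. Points are the 3 libraries of a group, and the bar and whiskers are the mean and SD. ndhD is higher in all Mito libraries than in any Total library, while ndhC, ndhK, ndhJ and ndhF are lower, and ndhA and ndhH overlap.

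Together the 10 members took 1.20%, 1.69% and 1.46% of the plastid counts in Mito otp90, against 1.51%, 1.79% and 1.74% in Mito WT, and 1.75%, 1.89% and 1.58% in Total otp90, against 1.84%, 2.08% and 1.91% in Total WT. The share was 0.29 percentage points lower in Mito than in Total in otp90, where the groups overlapped, and 0.26 points lower in WT, where they did not. It was 0.23 points lower in otp90 than in WT in Mito and 0.20 points lower in Total, with overlap in both. In Mito the replicate numbers were taken to pair the libraries, on correlations in these same data and not on the labels. Each of the 3 pairs so formed had the lower sum in otp90, by 0.10 to 0.31 points, which is a description only. With 3 against 3 libraries an exact permutation test cannot go below p = 0.1, so none was applied to these sums. Without psbA in the denominator, the members took 2.14% ± 0.352 in Mito otp90 and 3.56% ± 0.202 in Total otp90 (SD, n = 3 each), and 2.48% ± 0.181 in Mito WT and 3.57% ± 0.115 in Total WT (SD, n = 3 each), without overlap between the extracts. The difference between otp90 and WT in Total was then -0.0025 points.

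Within otp90 and within WT, the Mito libraries were set against the Total libraries to see how the extracts differ in these transcripts. Relative to all genes, every member was lower in Mito, in both genotypes. The fits were made with edgeR after TMM scaling, which sets the bulk of genes to no change, with a threshold of 0.05 on Benjamini-Hochberg adjusted p. In otp90, 10 of 10 members were called lower, where 22.3% of the 16337 genes tested were called lower. In WT it was again 10 of 10, where 20.9% of 16436 genes were. The members' median log2 fold change was -1.46 in otp90, beside -0.95 over the other 120 plastid genes tested and 0.02 over all genes, and -1.28 in WT, beside -1.21 over 118 other plastid genes and 0.00 over all genes. Of the other plastid genes, 79 were called lower and 7 higher in otp90, and 86 lower and 1 higher in WT. ndhB was not called on this scale: its copy ATCG00890 had 0.10 (SE 0.122) in otp90 and -0.26 (SE 0.129) in WT, and reads of the 2 copies were counted in both.

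The counts of called members depended on the scale. With each library scaled to its plastid counts, 6 members stayed lower in each genotype (ndhC, ndhK, ndhJ, ndhF, ndhE and ndhG), where 2.61% of all genes tested were called lower in otp90 and 1.9% in WT. Of the other plastid genes on this scale, 41 of 120 were called lower and 34 higher in otp90, and 53 of 118 lower and 27 higher in WT. In otp90 1 member, ndhD, was called higher, where 77.5% of genes were called higher. In WT 0 members were, where 67.0% of genes were. The ndhB copy ATCG00890 was called higher in both, with 0.94 (SE 0.130, edgeR adjusted p = 0.00031) in otp90 and 0.57 (SE 0.130, adjusted p = 0.0046) in WT. Going from TMM to this scale moved the median of all genes to 0.86 in otp90 and 0.83 in WT, and scaling to library size alone moved it to 0.47 and 0.48. The plastid-count scale is used below for shares and TMM for fold changes relative to all genes. By shares of plastid counts, 6 members lay lower in Mito without overlap in otp90, where 3.01% of the genes tested did. In WT 7 members did, where 2.84% of genes did. The libraries of ndhD lay higher in both genotypes, where 79.5% and 72.0% of genes did. Of the other plastid genes, 45 of 120 lay lower and 33 higher in otp90, and 54 of 118 lower and 32 higher in WT.

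Among the proton-pumping membrane subunits, ndhD and ndhF differed in their shares. ndhD took 0.521%, 0.537% and 0.564% of the plastid counts in Mito otp90, against 0.385%, 0.416% and 0.363% in Total otp90. In WT it took 0.550%, 0.564% and 0.550% in Mito, against 0.435%, 0.515% and 0.444% in Total. All 6 Mito libraries lay above all 6 Total libraries. On the scale of plastid counts the log2 fold change was 0.48 (SE 0.104, edgeR adjusted p = 0.0032) in otp90 and 0.26 (SE 0.111, adjusted p = 0.066) in WT, but relative to all genes ndhD was lower, with -0.36 (SE 0.092, adjusted p = 0.016) in otp90 and -0.57 (SE 0.132, adjusted p = 0.0135) in WT. The direction of ndhD thus flipped with the scaling, and with library size alone it was 0.10 in otp90 and -0.09 in WT. The TMM call of ndhD was lost without replicate 1, 2 or 3 of Mito otp90 (adjusted p = 0.061, 0.077 and 0.056) and, in WT, without Mito WT replicate 3 (adjusted p = 0.053). ndhF took 0.0591%, 0.0938% and 0.0798% of the plastid counts in Mito otp90, against 0.128%, 0.139% and 0.116% in Total otp90, and 0.0866%, 0.106% and 0.0936% in Mito WT, against 0.162%, 0.159% and 0.151% in Total WT. It was lower on both scales, with TMM log2 fold changes of -1.56 in otp90 (SE 0.150) and -1.56 in WT (SE 0.157), and -0.72 in each genotype on the scale of plastid counts.

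The other membrane subunits were lower in Mito relative to all genes, to different degrees. ndhC, the first gene of its cluster, took 0.0555%, 0.0904% and 0.0672% of the plastid counts in Mito otp90, against 0.138%, 0.147% and 0.129% in Total otp90, and 0.0733%, 0.101% and 0.0921% in Mito WT, against 0.132%, 0.129% and 0.142% in Total WT. Its TMM log2 fold change in otp90, -1.81 (SE 0.155, adjusted p = 0.00019), was the lowest of the 10 members, and that in WT was -1.44 (SE 0.179, adjusted p = 0.0013). ndhE and ndhG, both for small subunits of the membrane arm, had -1.38 and -1.40 in otp90 and -1.31 and -1.25 in WT. On the scale of plastid counts these were still called lower, at -0.54 and -0.55 in otp90 and -0.47 and -0.41 in WT. ndhA, for the subunit that joins the membrane arm to the stromal arm, took 0.133%, 0.271% and 0.215% of the plastid counts in Mito otp90, against 0.235%, 0.276% and 0.197% in Total otp90. In WT its share was 0.217%, 0.261% and 0.275% in Mito, against 0.228%, 0.308% and 0.256% in Total. These groups overlapped, and while ndhA was called lower relative to all genes (-1.04, SE 0.231 in otp90; -0.90, SE 0.119 in WT), it was not called on the scale of plastid counts (-0.19 in otp90 and -0.07 in WT).

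In the stromal arm, the changes of ndhK and ndhJ lay near that of ndhC, their neighbour in the cluster. That of ndhH lay nearer to ndhA, at a distance of 1 base, than to ndhC, but in WT it was nearer still to ndhD. The change of ndhI, 84 bases from ndhA, was larger than that of ndhA in both genotypes, so likeness did not follow position throughout. ndhK, for an iron-sulfur subunit, took 0.109%, 0.166% and 0.136% of the plastid counts in Mito otp90, against 0.242%, 0.253% and 0.227% in Total otp90, and 0.137%, 0.173% and 0.163% in Mito WT, against 0.230%, 0.240% and 0.238% in Total WT. Its TMM log2 fold change was -1.66 (SE 0.136) in otp90 and -1.42 (SE 0.150) in WT, and that of ndhJ was -1.54 (SE 0.112) and -1.34 (SE 0.150). Both were called lower on either scale. ndhH had the smallest change of the stromal arm, with -0.88 (SE 0.272, adjusted p = 0.032) in otp90 and -0.68 (SE 0.132, adjusted p = 0.0069) in WT relative to all genes, and -0.03 in otp90 and 0.16 in WT on the scale of plastid counts, where it was not called and its sign in WT was turned. Its TMM call in otp90 was lost without Mito otp90 replicate 1 or 3 (adjusted p = 0.074 and 0.12) and without Total otp90 replicate 1 or 2 (adjusted p = 0.071 and 0.052). ndhI, for the subunit that carries a pair of iron-sulfur clusters, had -1.52 (SE 0.297) in otp90 and -1.16 (SE 0.125) in WT relative to all genes. On the scale of plastid counts ndhI had -0.67 and -0.33 and was not called in either genotype.

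**Figure D2:**
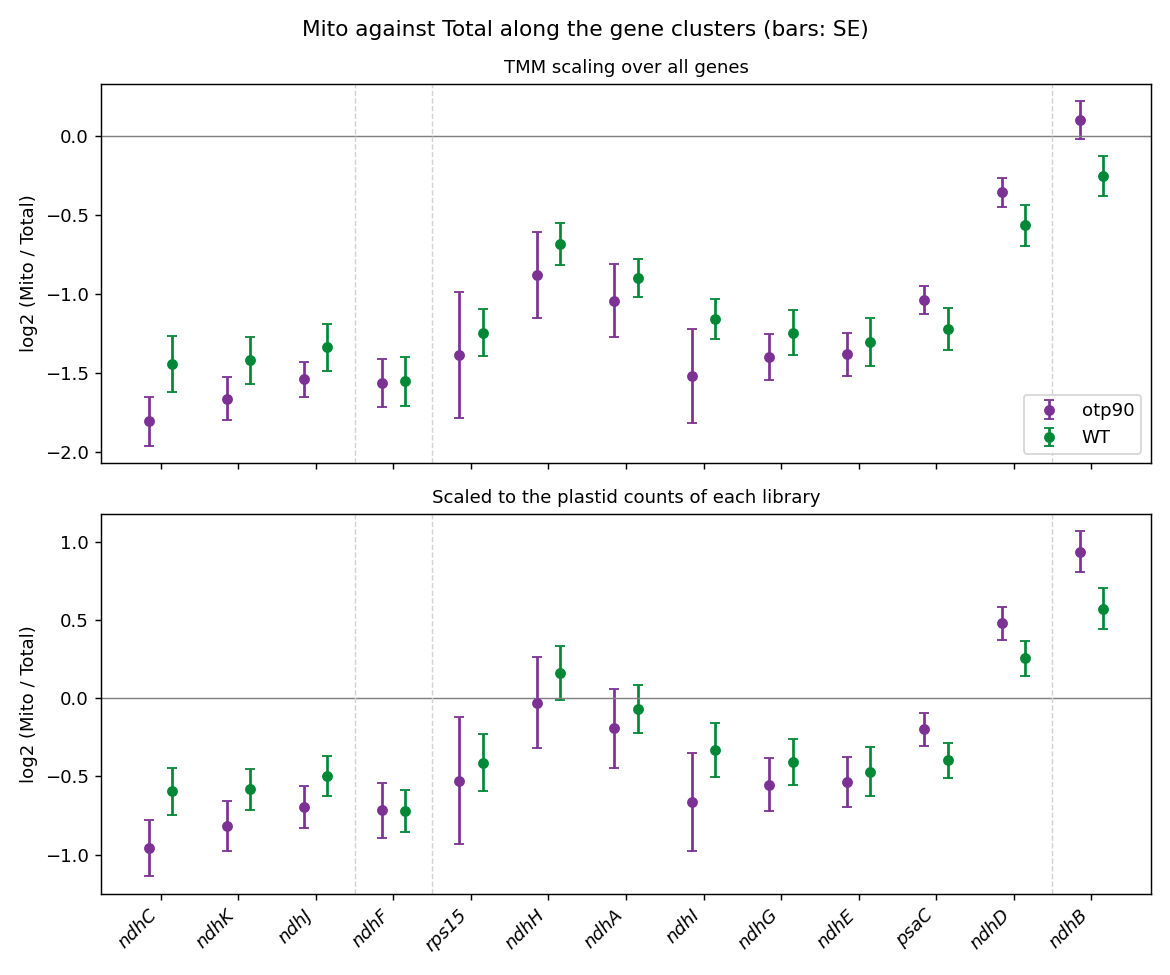
log2 fold change of Mito against Total for the ndh genes in the order of transcription in their clusters, with rps15, psaC and ndhB (copy ATCG00890) for comparison. Dashed lines part the clusters, otp90 stands left of WT, and bars are standard errors of the edgeR fit. Relative to all genes (upper panel) the 10 members lie below 0, from -1.81 to -0.36 in otp90 and from -1.56 to -0.57 in WT, and on the scale of plastid counts (lower panel) ndhD lies above 0 and ndhA and ndhH near it.

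Along the cluster of ndhH to ndhD the changes were thus not even. Relative to all genes, psaC, which lies between ndhE and ndhD, had -1.04 (SE 0.0876) in otp90 and -1.22 (SE 0.133) in WT, while ndhD, 132 bases further on, had -0.36 and -0.57. The ratio of ndhD counts to psaC counts does not depend on the scaling. It was 2.16, 2.05 and 2.25 in Mito otp90, against 1.32, 1.36 and 1.35 in Total otp90, and 2.12, 2.0 and 2.04 in Mito WT, against 1.23, 1.35 and 1.33 in Total WT. All Mito libraries lay above all Total libraries, with differences of means of 0.81 in otp90 and 0.75 in WT. In both, a two-sided exact permutation test gave p = 0.1, which is the lowest value that 3 against 3 libraries allow, and 0.18 after Benjamini-Hochberg adjustment over 20 comparisons of such ratios. Of the counts of the 10 members, ndhD held 43.5%, 31.8% and 38.5% in Mito otp90, against 22.0%, 22.0% and 23.0% in Total otp90, and 36.5%, 31.5% and 31.6% in Mito WT, against 23.7%, 24.8% and 23.2% in Total WT. The cluster of ndhC, ndhK and ndhJ held 21.8% ± 0.729 in Mito otp90 and 32.0% ± 1.24 in Total otp90, and 21.9% ± 0.747 in Mito WT and 28.0% ± 1.72 in Total WT (SD, n = 3 each). In otp90 ndhF held 5.31% ± 0.335 in Mito and 7.34% ± 0.0132 in Total (SD, n = 3 each). In WT it held 5.69% ± 0.285 in Mito and 8.13% ± 0.618 in Total (SD, n = 3 each). For ndhD, for ndhF and for the ndhC cluster the extracts did not overlap in either genotype (two-sided exact permutation p = 0.1). The 5 genes from ndhH to ndhE held 35.0% ± 4.87 in Mito otp90 and 38.3% ± 1.80 in Total otp90, and 39.3% ± 2.38 in Mito WT and 40.0% ± 1.51 in Total WT (SD, n = 3 each), with overlap. These ratios were chosen after the values were seen.

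**Figure D3:**
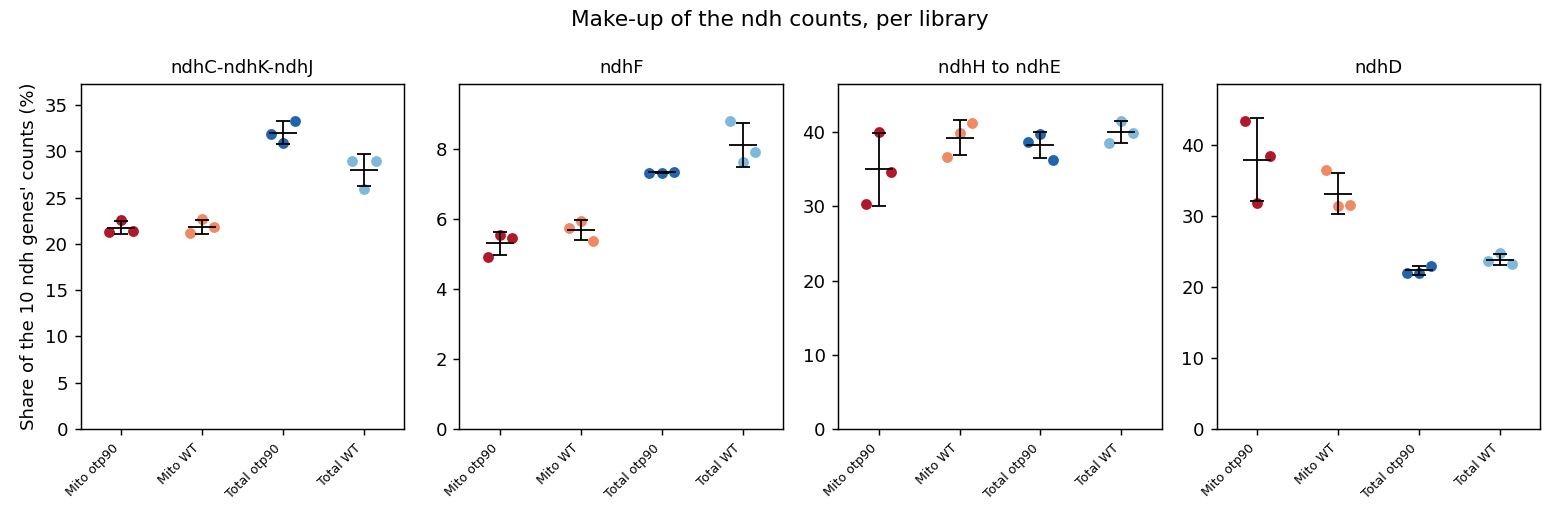
Share of the summed counts of the 10 ndh genes, in percent, held by ndhC-ndhK-ndhJ, by ndhF, by the 5 genes from ndhH to ndhE and by ndhD. Points are libraries, the bar and whiskers the mean and SD of 3. In Mito ndhD holds 31.5% to 43.5% and in Total 22.0% to 24.8%, while the ndhC cluster and ndhF hold less in Mito.

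Other measures differed between the extracts beside these results. The markers of epidermis (ATML1, 83.2 CPM in Mito otp90 and 80.9 in Mito WT, against 38.8 in Total otp90 and 39.9 in Total WT) and of guard cells (KAT1, 12.4 CPM in Mito otp90 and 13.9 in Mito WT, against 5.60 in Total otp90 and 6.46 in Total WT) had higher means in Mito. That of companion cells (SUC2, 54.8 CPM in Mito otp90 and 50.2 in Mito WT, against 79.5 in Total otp90 and 78.5 in Total WT) had lower means. Library depth was lower in Mito as well. Their part in the results was not tested, and fewer cells of a type and less RNA per cell cannot be told apart in such extracts.

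otp90 was compared with WT in each extract to see whether the mutation goes with a change of these transcripts. In Mito, 0 of 10 members were called by edgeR, where 0.0604% of the 16570 genes tested were called (10 genes). At an unadjusted p under 0.05 there was 1 member, ndhG, and 1153 genes. DESeq2 called 0 members and 105 genes. The members' log2 fold changes ran from -0.49 for ndhI to 0.06 for ndhD, with a median of -0.20, beside 0.04 over the other plastid genes and 0.00 over all genes. The members' median was -0.04 without Mito otp90 replicate 1, -0.39 without Mito otp90 replicate 2 and -0.12 without Mito WT replicate 2. No member's share of plastid counts was apart between the genotypes, where 11.4% of genes lay lower and 0.887% higher without overlap.

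ndhI had the lowest of these values. It took 0.0276%, 0.0725% and 0.0436% of the plastid counts in Mito otp90, against 0.0585%, 0.0783% and 0.0777% in Mito WT. The groups overlapped, since replicate 2 of otp90 lay among the WT libraries. The log2 fold change was -0.49 (SE 0.246, edgeR adjusted p = 0.745), and without single libraries it ranged from -0.86 to -0.24, the smaller without replicate 1 of otp90 and the larger without its replicate 2. In each of the 3 pairs of equal number ndhI had the lower share in otp90, as had 7 of the 10 members (ndhC, ndhE, ndhF, ndhG, ndhI, ndhJ and ndhK). How many of all genes did so was not counted, and the pairing was taken from these data, so the 7 are not read as particular to the members. On the scale of plastid counts the median log2 fold change in Mito was -0.11 over all genes. It was -0.06 over the other plastid genes and -0.30 over the members. With the replicate number as a block, ndhI was called lower (-0.57, SE 0.122, adjusted p = 0.034), as 1 of 10 members, where 0.471% of genes were called lower. ndhG, with -0.33 (SE 0.0763, adjusted p = 0.052), and ndhE, with -0.28 (SE 0.073, adjusted p = 0.088), did not pass in that fit. There 6 of 10 members had an unadjusted p under 0.05, as had 2096 of the 16570 genes tested. The spread within Mito otp90 was wide in the genes around ndhI: ndhH counts were 5528, 12035 and 6651, against 9463, 11681 and 10091 in Mito WT, and rps15 took 0.0024%, 0.0084% and 0.0036% of the plastid counts, against 0.0055%, 0.0077% and 0.0070% in Mito WT.

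In Total, 0 of 10 members were called, where 0.0% of the 15373 genes tested were called. At an unadjusted p under 0.05 there were 0 members and 458 genes, and DESeq2 called 0 members and 18 genes. ndhC, ndhK and ndhJ had log2 fold changes of 0.16 (SE 0.159), 0.15 (SE 0.136) and 0.16 (SE 0.140), while the other 7 members ranged from -0.18 for ndhF and ndhE to 0.02 for ndhH. By shares of plastid counts, 4 members lay lower in otp90 without overlap, where 9.65% of genes tested did: ndhD, ndhF, ndhE and ndhG. Of the other 121 plastid genes, 42 lay lower without overlap. 0 members lay higher, where 1.17% of genes did. ndhG took 0.171%, 0.180% and 0.147% in Total otp90, against 0.195%, 0.210% and 0.198% in Total WT, with 51897 to 65934 counts in Total otp90 and 58976 to 62682 in Total WT. psbA took 47.8% to 56.0% of the plastid counts in Total otp90 and 43.3% to 48.9% in Total WT. With plastid counts as the scale the fit called 0 members and 0.0% of genes, with 4 members and 497 of the 15373 genes at an unadjusted p under 0.05. On that scale ndhD, ndhF, ndhE and ndhG had -0.26, -0.30, -0.31 and -0.28. Scaled to the plastid total without psbA and rRNA genes they had -0.10, -0.15, -0.15 and -0.12, with 0 members and 297 genes at an unadjusted p under 0.05. Of the counts of the 10 members in Total, ndhD held 22.3% ± 0.586 in otp90 and 23.9% ± 0.827 in WT, ndhF 7.34% ± 0.0132 in otp90 and 8.13% ± 0.618 in WT, and the cluster of ndhC, ndhK and ndhJ 32.0% ± 1.24 in otp90 and 28.0% ± 1.72 in WT (SD, n = 3 each). These 3 shares did not overlap between the genotypes (two-sided exact permutation p = 0.1, adjusted 0.18), while that of the genes from ndhH to ndhE did (p = 0.4). The value of 0.1 is the lowest that 3 against 3 libraries allow. These shares are parts of the same total, so they are not separate results, and they were chosen after the values were seen. For ndhD the nearest libraries held 23.03% in otp90 and 23.19% in WT.

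**Figure D4:**
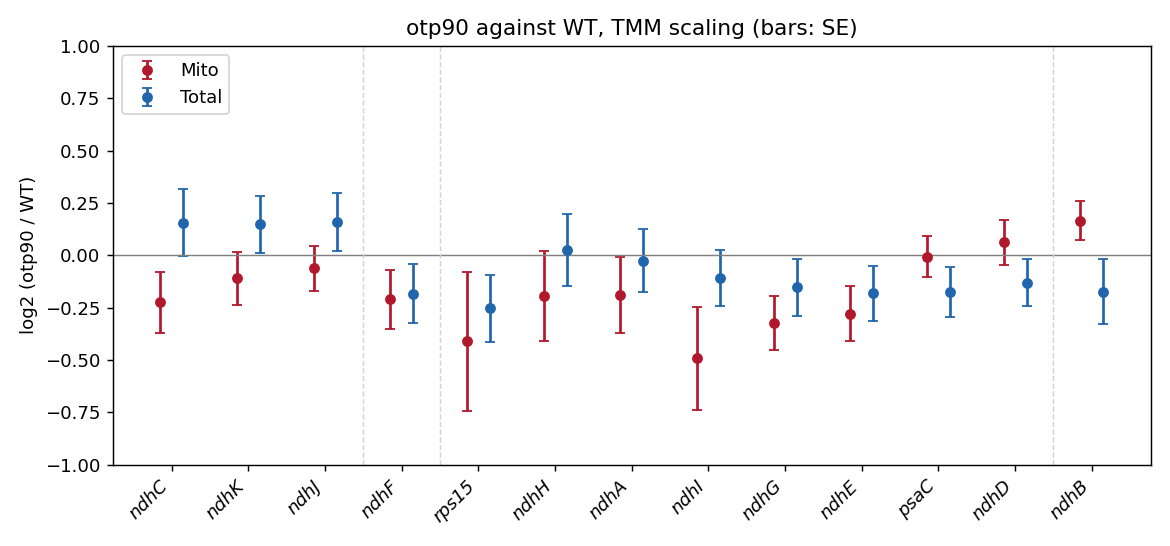
log2 fold change of otp90 against WT for the ndh genes, with rps15, psaC and ndhB (copy ATCG00890), in Mito (left of each pair) and in Total, relative to all genes. Bars are standard errors of the edgeR fit and dashed lines part the clusters. The members lie between -0.49 and 0.16 and none was called.

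The difference of the otp90 effect between Mito and Total was tested in 1 fit of all 12 libraries. 0 of 10 members were called by edgeR, where 0.0% of 16825 genes were, with 0 members and 853 genes at an unadjusted p under 0.05, and DESeq2 called 0 members and 6 genes. The largest differences, -0.38 (SE 0.344) for ndhI and -0.38 (SE 0.242) for ndhC, each had an adjusted p of 0.93 or more.

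The partners of the plastid genes were followed as fixed lists in the comparison of Mito with Total. The list of nuclear NDH subunits held 20 genes, among them LHCA5 and LHCA6, for light-harvesting proteins that link the complex to photosystem I. Of these 20 genes, 20 were called lower in Mito in each genotype, where 22.3% of all genes were in otp90 and 20.9% in WT. Their median log2 fold change was -1.31 in otp90 and -1.30 in WT. Their summed level was 443 ± 36.5 CPM in Mito otp90 and 766 ± 57.7 in Total otp90, and 452 ± 16.8 in Mito WT and 755 ± 98.6 in Total WT (SD, n = 3 each). PNSB4 (AT1G18730, chromosome 1), for a subunit of the part that binds beside the membrane arm, had the largest change, with -1.68 (SE 0.117) in otp90 and -1.73 (SE 0.146) in WT. It was followed by PNSL2 (AT1G14150, chromosome 1), for a lumenal subunit, with -1.64 in otp90 and -1.63 in WT, by PNSL1 (AT2G39470), a further lumenal subunit, with -1.54 in otp90, and by PNSB3 (AT3G16250), with -1.55 in WT. Scaled to plastid counts, 10 of the 20 were called lower in each genotype, where 2.61% of all genes were in otp90 and 1.9% in WT.

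Of 7 assembly factors of the complex, 7 were called lower in each genotype, against the same 22.3% and 20.9% of all genes, with medians of -0.91 in otp90 and -1.01 in WT. CRR42 had -1.29, CRR7 -1.17 and CRR3 -1.02 in otp90, and CRR3 had -1.23, CRR41 -1.12 and CRR42 -1.06 in WT. On the scale of plastid counts 1 was called lower in otp90, where 2.61% of all genes were, and 0 in WT, where 1.9% were. Of 11 factors for the expression of ndh transcripts, 10 passed the filter. CRR22, a pentatricopeptide repeat protein that edits sites of ndhB and ndhD among others, was called higher, with 0.67 (SE 0.131) in otp90 and 0.42 (SE 0.137) in WT. DYW1, the partner of CRR4 at the ndhD initiation codon, had -0.72 in otp90 and -0.74 in WT, and SIG4, a sigma factor for the transcription of ndhF, -0.71 and -0.80, all called lower. The other 7 were not called. On the scale of plastid counts 7 of the 10 were called higher in otp90, where 77.5% of all genes were, and 6 in WT, where 67.0% were, with 0 lower. CRR4 stood at 1.46 ± 0.16 CPM in Mito otp90, 1.34 ± 0.24 in Mito WT, 1.15 ± 0.14 in Total otp90 and 1.27 ± 0.18 in Total WT (SD, n = 3 each).

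PGR5, PGRL1A and PGRL1B, which serve the other route of cyclic electron flow, were called lower in Mito as well, with -1.02, -1.01 and -0.73 in otp90 and -1.05, -0.88 and -0.44 in WT, and 0 of the 3 on the scale of plastid counts. Between otp90 and WT, and for the difference between extracts, 0 genes of these 4 lists were called by edgeR or DESeq2. At an unadjusted p under 0.05 edgeR gave 1 nuclear subunit gene, NDHV, and 1 expression factor, CRR22, both in Mito, where 1153 of the 16570 genes tested were.

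The genes most like the members over the 12 libraries were sought by the root mean square difference of centred log2 CPM from the members' mean profile, over 16815 genes. The closest were trnK (ATCG00030, Pt:1717-4347) at 0.10, atpF (ATCG00130, Pt:11529-12798), for a subunit of the ATP synthase, at 0.10, and the nuclear AT3G44020 at 0.12. The members themselves ranged from 0.079 for ndhG to 0.44 for ndhD, which stood farthest from the mean profile of its own group. trnK had -1.16 in otp90 and -1.17 in WT for Mito against Total, and atpF -1.35 and -1.19.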

How the data were processed

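The authors deposited a table of unnormalised counts for each library. Per the file headers these were made with featureCounts 1.6.3 over exons, in the stranded setting 2, and multi-mapping reads were kept. The study's methods say that reads were single-end and stranded after ribosomal depletion, and that STAR mapped them without introns to Ensembl Genomes TAIR10 with the Col-0 mitochondrial genome, keeping all best positions. Reads across the junction of the ndhA exons were thus not placed whole, and reads shared by gene copies were counted in each. By blastn 2.17.0, ndhF was the only member with a run of 75 identical bases outside the plastid chromosome (chromosome 2, 3189036 to 3189953). ndhF overlaps the gene ATCG01000 of the opposite strand by 39 bases, which stranded counting separates. Plastid names, sequences and spans come from RefSeq TAIR10.1.

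Counts were fitted with edgeR 4.0.16 in R 4.3.3 (TMM, glmQLFit, glmQLFTest) over genes that passed 1 CPM in 3 or more of the libraries fitted, with Benjamini-Hochberg adjustment over all genes tested and a threshold of 0.05. All 10 members passed this filter. Each contrast used its 6 libraries, and the difference between contrasts all 12. Standard errors are the unshrunk log2 coefficient over the square root of F. Alternatives were other scalings, DESeq2 1.42.0, no filter, 5 CPM, the replicate block, 1 fit of 12 libraries and leaving out each library. Leaving out libraries on the scale of plastid counts was added after seeing the data. The fit was tested on simulated data. Replicate libraries differed by more than sampling noise.

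Replicate numbers are shared by all groups. Deviations from the group means of same-numbered libraries correlated at 0.438, 0.417 and 0.117 between Mito otp90 and Mito WT, all over 0.1, so these numbers were taken to pair libraries. This pairing comes from the data, not from the labels. It did not hold in the other comparisons.

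Named were all members, psaC, rps15, ndhB, at most 3 called genes per list and direction, and the 3 genes with the most similar profile. Members, lists and tests were chosen with earlier results of these data known.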

Additional observations from a re-analysis of the deposited data

How the results depend on the processing

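Scaled to plastid counts, 6 members instead of 10 were called lower in Mito in each genotype. ndhD was then reversed to 0.48 (adjusted p = 0.0032) in otp90 and 0.26 (adjusted p = 0.066) in WT, and ndhH to 0.16 (adjusted p = 0.41) in WT. ndhD in otp90 was also reversed to 0.10 (adjusted p = 0.37) by library size alone and to 0.0065 (adjusted p = 0.96) by the plastid total without psbA and rRNA genes. In the other settings with all libraries, 7 to 10 members were called lower, where 780 to 3992 genes were, of 10603 to 25433 tested. Without single libraries it was 8 to 10 in otp90, where 2474 to 4381 genes were called lower, and 9 to 10 in WT, where 2038 to 5124 were. On the scale of plastid counts it was 4 to 7 in otp90, where 275 to 424 genes were called lower. In WT it was 4 to 6 on that scale, where 194 to 363 genes were. The other plastid genes called lower on that scale were 32 to 46 in otp90 and 44 to 54 in WT, of 117 to 120 tested. These fits without single libraries tested 15547 to 16359 genes. ndhH in otp90 was not called without Mito otp90 replicate 1 or 3 or Total otp90 replicate 1 or 2, nor ndhD without Mito otp90 replicate 1, 2 or 3 or, in WT, without Mito WT replicate 3.

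With the replicate block, 1 member was called between otp90 and WT in Mito in place of 0 (ndhI), and 221 genes instead of 10. In the other comparisons the libraries share only a number and did not all correlate best with their own number. There the block called 0 members and 0 genes in Total, and for Mito against Total 9 of 10 members in each genotype. Of all genes, it called 3384 of 16337 lower in otp90 and 2938 of 16436 in WT for Mito against Total. For the summed share the mean of same-numbered differences equals the difference of means. In the genotype comparisons 0 members were called in the other settings, with an exception. On the scale of plastid counts, otp90 against WT in Mito gave 0 to 1 members without single libraries, with ndhI called lower without Mito otp90 replicate 2 or Mito WT replicate 1. Without Mito otp90 replicate 2, 52 of 16480 genes were called lower there, with 10 of the 116 other plastid genes among them. Without Mito WT replicate 1 it was 45 of 16468 genes, with 4 of the 115 other plastid genes.

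Without psbA the summed share differed by -0.0025 points between otp90 and WT in Total (-0.0078 without rRNA genes as well), and between Mito and Total by -1.42 points in otp90 (-1.42) and by -1.08 in WT (-1.09). Without single libraries the difference of the summed share ranged from -0.41 to -0.16 points for Mito against Total in otp90 and from -0.32 to -0.18 in WT, and for otp90 against WT from -0.35 to -0.10 in Mito and from -0.28 to -0.12 in Total. Counting error is small at this depth, so the spread between 3 libraries limits these comparisons.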
